A study of Mus musculus with 6 samples.

Results

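The nuclear receptor superfamily without the NR4A receptors was read out in mouse embryonic fibroblasts, connective tissue cells grown from embryos. The set holds 43 genes in 22 subfamilies, taken from the deposited table by gene symbol, of 21853 genes in all. All 43 were present on a single row each. The cells were of the C57BL/6J strain, with an age of 12 days in the labels, and all 6 libraries carried a knockout of xCT, the cystine importer encoded by Slc7a11. Cells given water (control, n = 3) were compared with cells given red clover extract (RCE, n = 3). The sources used here gave neither dose nor exposure time, nor the knockout's design, nor whether the cells were a single clone.

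Nuclear receptors are transcription factors, most of which carry a zinc finger DNA-binding domain and a ligand-binding domain. Steroid receptors act mainly as homodimers, and receptors for retinoic acid, thyroid hormone, vitamin D, fatty acids and oxysterols pair with a retinoid X receptor (RXR), whereas orphan members have no established hormone. Without ligand many of them hold corepressors at their targets, and ligand exchanges these for coactivators. In fibroblasts they are known for the glucocorticoid response, retinoid patterning, adipogenic commitment and the circadian clock. Red clover is known as a source of isoflavones, plant compounds that bind estrogen receptors.

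The libraries held 45650000 to 58950000 fragments each, and 10766 to 10924 genes reached 1 FPKM (a fragment count per kilobase of transcript, relative to library size) in a library. Slc7a11 was at 0.007 to 0.037 FPKM in the 6 libraries. All 10 fibroblast markers had a mean of at least 1 FPKM. Replicate 1 of both groups stood apart on the component with 36.5% of the variance. The labels do not say that replicates came from separate cultures, so the spread behind each p-value may be technical only.

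The fibroblasts expressed 21 of the 43 receptors, taking an average of 1 FPKM or more across libraries as expressed, and 22 lay below. In control cells Nr1d1 (REV-ERB alpha, a haem-binding clock repressor) was the most abundant at 46.6 ± 9.0 FPKM (SD, n = 3). Nr3c1 (the glucocorticoid receptor) followed at 31.7 ± 1.34, Rarg (retinoic acid receptor gamma) at 28.9 ± 3.30 and Nr1h2 (the oxysterol receptor LXR beta) at 26.9 ± 4.55 FPKM. The ranges of Nr1d1 and Nr3c1 did not overlap, while those of Nr3c1, Rarg and Nr1h2 overlapped from each to the next. A middle tier ran from Ppard at 18.4 FPKM through Nr2f2, Pparg, Nr2f6, Rxrb, Nr1d2, Esrra, Thra and Rxra to Rara at 9.13 FPKM, and every neighbour in that order overlapped the next. Below it Nr2c1 (7.58), Nr2c2 (6.59), Rora (4.67), Vdr (3.08), Nr2f1 (1.99) and Nr6a1 (1.35 FPKM) were each apart from the one above. Nr6a1 and Nr1h3 (1.27 FPKM) overlapped. Thus 8 of 20 neighbouring pairs were apart in control cells, and 8 of 20 with the extract. The members next to the limit of 1 FPKM were Nr1h3 (mean over all libraries 1.28 FPKM) above it and Rarb (0.901) and Thrb (0.862) below it.

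**Figure D1:**
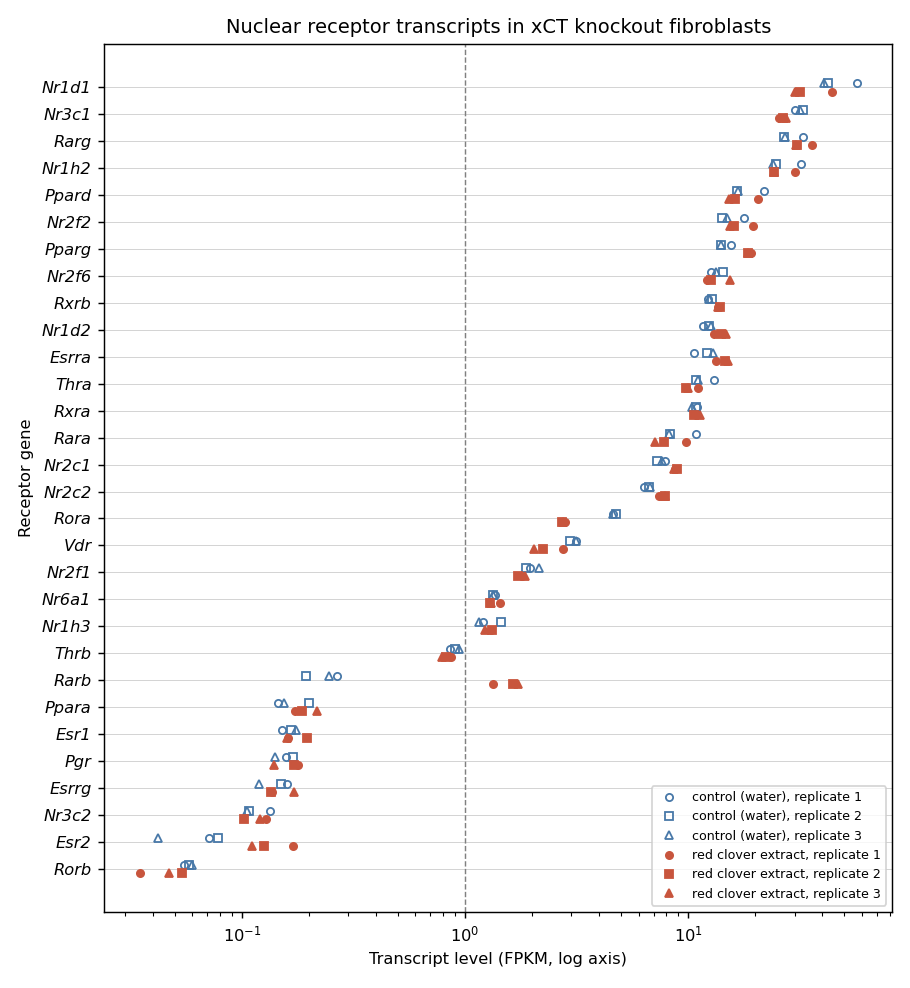
Level of each receptor with a mean over 0.05 FPKM, in FPKM on a log axis, as 1 point per library (open blue, water; filled red, extract; shape, replicate number), with a dashed line at 1 FPKM. The 3 extract libraries of Rarb sit between 1.34 and 1.72 FPKM, all above the control libraries, and Rora is lower in all 3.

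The summed level of all 43 members was 293 ± 21.7 FPKM in control cells and 288 ± 17.9 FPKM with the extract (SD, n = 3). The REV-ERB pair made up 20.0% ± 1.37 of that sum in control and 17.1% ± 1.32 with the extract. Sums and levels describe messenger RNA in a whole culture, where fewer cells of a type and less RNA per cell cannot be told apart.

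With the extract, Rora, Nr3c1 and Vdr fell, and Pparg, Nr2c1 and Nr2c2 rose. Changes are differences of log2(FPKM + 1), extract minus control, a scale that makes the change of a weakly expressed gene look smaller than it is. In limma over the 10870 genes that averaged 1 FPKM or more, at a threshold of 0.05 after Benjamini-Hochberg adjustment, 3 of the 21 expressed receptors were called higher, 3 lower and 15 not. Over all genes tested, 24.3% were called, 17.6% higher and 6.77% lower, so the members' 6 of 21 lie near the share over all genes. The median change was 0.00 for the members and 0.08 for all genes, and 10 members had a positive and 11 a negative change. With median-of-ratios scaling, which moved the median of all genes to 0.00, 1 member was called higher and 3 lower, and over all genes the higher share of calls went from 72.2% to 45.8%. The groups did not overlap for 10 of 21 members, 6 with the extract above and 4 below, where 42.2% of all genes did not overlap.

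Replicate 1 stood apart in both groups, while libraries 2 and 3 followed the library of the other number (correlation of deviations from group means 0.771 and 0.724) more closely than that of their own (0.62 and 0.681). The labels share replicate numbers between groups, and number was also used as a block. The blocked fit called 8 members higher and 7 lower, 9 more than without the block, where 62.5% of all genes were called. Without both replicate 1 libraries 7 members were called higher and 6 lower, where 4364 of the 10870 genes were higher and 1480 lower. With control library 2 or 3 or extract library 2 left out, 1 member was higher (Pparg) and 1 lower (Rora). With extract library 3 left out 1 was higher and 2 were lower, with extract library 1 left out 5 and 4, and with control library 1 left out 2 and 2. Over the 10870 genes, these counts were 899 and 461, 2040 and 734, and 1587 and 637 in the same order. With control library 2, control library 3 or extract library 2 left out, they were 909 and 446, 844 and 444, and 685 and 394.

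**Figure D2:**
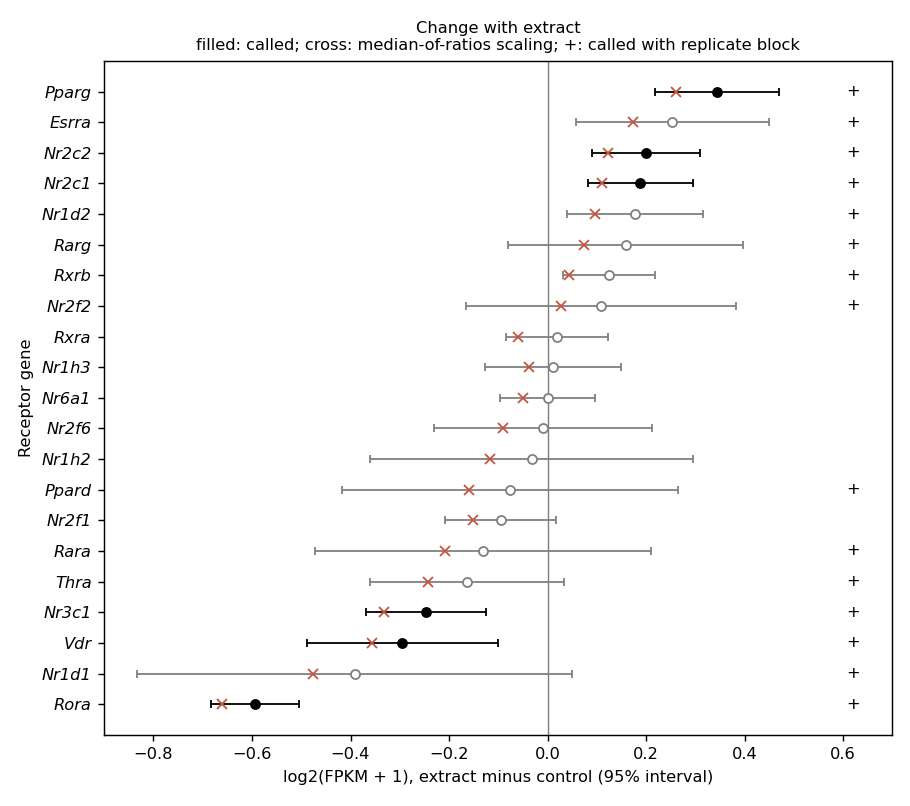
Change of the 21 expressed receptors on the log2(FPKM + 1) scale, extract minus control, as points with 95% intervals (filled, called at an adjusted p below 0.05), with crosses for median-of-ratios scaling and a plus sign at the right for a call with the replicate block. Rora at -0.59 and Pparg at 0.34 hold the ends of the scale, and the crosses lie to the left of every point.

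The largest ratio between group means among members above 0.05 FPKM was that of Rarb, retinoic acid receptor beta, a receptor whose own gene is a textbook target of retinoic acid receptors. It was at 0.267, 0.195 and 0.247 FPKM in control replicates 1, 2 and 3, and at 1.34, 1.64 and 1.72 FPKM in RCE replicates 1, 2 and 3. All 3 extract libraries lay far above all controls, and the mean was 6.63 times higher (0.236 ± 0.0372 against 1.57 ± 0.202 FPKM, SD, n = 3). If all its fragments are taken to lie on its longest annotated transcript of 3108 bases, these levels stand for 29.9 to 44.9 fragments in a control library and 190 to 300 in an extract library. Its mean over all libraries was just under the limit of 1 FPKM, so its test came from the fit without a filter on low values (17334 genes, 16.6% called). There the log2 change was 1.05 (SE 0.06, 95% interval 0.90 to 1.20, limma adjusted p = 5.79e-04). It was 2.31 with a pseudocount of 0.1, and it remained called when any single library was left out (adjusted p of at most 0.011).

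Rarb (ENSMUSG00000017491) lies on chromosome 14, 16430839 to 16819156, minus strand, on mm10, and 34.1% of its annotated exon bases are shared with Top2b on the opposite strand. Without strand in the counting, reads of the pair there could not be told apart, and the use of strand was not stated. Top2b was at 14.1 ± 1.09 FPKM in control and 15.5 ± 0.692 with the extract, a ratio of 1.10 and a log2 change of 0.13 (adjusted p = 0.206, and 0.00685 with the block). Its part in the level of Rarb was not tested.

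The promoter of Rarb is shown because it holds the element through which retinoic acid receptors are known to bind this gene. RefSeq promoters (GRCm38.p6, 250 bases before to 50 after each start) were found for 39 of the 43 members, in 60 windows, and Hnf4g, Thra, Nr5a1 and Nr3c1 had none. A pair of direct half-sites (AGGTCA or the variants GGGTCA or else AGTTCA or lastly GGTTCA) with 5 bases between was searched on both strands. It was present in 32 of 32851 promoters in all (0.0974%) and in 1 of the 60 windows of the members, that of Rarb, from 53 to 37 bases before the start. The 250 bases before the start on the minus strand, chr14:16575477-16575726, are given with the repeat in capitals.
Rarb promoter: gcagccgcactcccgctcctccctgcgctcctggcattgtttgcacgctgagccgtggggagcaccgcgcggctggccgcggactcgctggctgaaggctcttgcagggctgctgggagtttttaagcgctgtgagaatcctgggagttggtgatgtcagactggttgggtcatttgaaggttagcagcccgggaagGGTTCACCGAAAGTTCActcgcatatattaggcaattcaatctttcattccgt
A match is a description of these letters and shows no binding in these cells.

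The other retinoic acid receptors were not called. Rarg was at 32.7, 26.9 and 27.1 FPKM in control and 35.9, 30.7 and 30.6 with the extract, higher in each same-numbered pair but with overlapping groups (log2 change 0.16, SE 0.10, adjusted p = 0.292, and 0.00104 with the block). Rara was at 10.9, 8.29 and 8.20 FPKM against 9.83, 7.81 and 7.12, lower in each pair (-0.13, SE 0.14, adjusted p = 0.55, and 0.00875 with the block). Both genes were high in replicate 1 of either group. Of the summed RAR transcripts Rarg made up 75.6% ± 0.917 in control and 76.8% ± 0.706 with the extract, and Rarb went from 0.618% ± 0.0723 to 3.77% ± 0.813.

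Measured targets of retinoic acid receptors were also higher with the extract. All 5 measured list members above 1 FPKM were called higher (4 of 5 with median-of-ratios scaling or quantile normalization), with a median of 0.53. Over all genes 17.6% were called higher. The list was chosen with earlier results of these data known, so the 2 shares are no independent comparison. Without a filter 9 list members were tested and 5 were called higher, where 1964 of 17334 genes were higher. With control library 3 or extract library 3 left out 3 of 5 were called, and with control library 2 or extract library 2 left out 4 of 5. Dhrs3, which reduces retinal back to retinol, was at 7.69, 7.36 and 7.76 FPKM in control and 35.6, 32.7 and 33.2 with the extract. That is 4.45 times higher with no overlap (log2 change 2.02, SE 0.05, adjusted p = 1.21e-05). Tgm2, a transglutaminase, rose by 0.67 (adjusted p = 2.70e-04) and Crabp2, which carries retinoic acid to the nucleus, by 0.53 (adjusted p = 0.00194). Of the list members below the limit, the retinoic acid hydroxylase Cyp26b1, picked after its values were seen, was at 0.468 ± 0.0607 against 0.974 ± 0.061 FPKM (0.43 without a filter, adjusted p = 0.00251). Cyp26a1, Cyp26c1 and Stra6 were at most 0.063 FPKM in every library. Aldh1a3, which forms retinoic acid from retinal and was also picked after its values were seen, was at 1.09, 1.45 and 1.25 FPKM in control and 0.192, 0.214 and 0.269 with the extract. It fell without overlap (-0.88 without a filter, adjusted p = 0.00102), and the call held with any 1 library left out (adjusted p of at most 0.0165). Aldh1a1, Rdh10 and Aldh1a2, retinoid enzymes picked in the same way, were not called. Aldh1a1 was at 4.35 ± 0.239 against 4.81 ± 0.526 FPKM (0.12, adjusted p = 0.318). Rdh10 was at 4.235 ± 0.239 against 4.78 ± 0.296 FPKM (0.14, adjusted p = 0.12, and 0.0135 with the block). Aldh1a2 was at 0.131 ± 0.0279 against 0.0747 ± 0.024 FPKM (-0.07 without a filter, adjusted p = 0.094).

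The RXRs, the shared partners, were present as a pair. Rxrb was at 12.3, 12.9 and 12.4 FPKM in control and 13.6, 13.9 and 13.7 with the extract, without overlap (log2 change 0.12, SE 0.04, adjusted p = 0.0632, and 0.00479 with the block), and at 0.04 with median-of-ratios scaling. Rxra was at 10.8 ± 0.285 against 10.9 ± 0.323 FPKM (0.02, 95% interval -0.08 to 0.12, adjusted p = 0.785), and Rxrg was at most 0.018 FPKM. Rxrb made up 53.7% ± 0.796 of RXR transcripts in control and 55.7% ± 0.888 with the extract.

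Pparg, the receptor that drives fat cell formation, rose. It was at 15.5, 14.0 and 14.0 FPKM in control replicates 1, 2 and 3 and at 19.0, 18.5 and 18.6 FPKM in RCE replicates 1, 2 and 3. Every extract library was above every control library (ratio 1.29, log2 change 0.34, SE 0.05, adjusted p = 0.00651, and 0.0289 with median-of-ratios scaling). This call held under every other setting tried, with changes of 0.26 to 0.39. Ppard, the widely expressed isotype, was at 21.8, 16.6 and 16.8 FPKM against 20.6, 16.3 and 15.3 (-0.08, 95% interval -0.42 to 0.26, adjusted p = 0.737, and 0.0487 with the block). Ppara, the fatty acid oxidation isotype, was at 0.167 ± 0.0291 against 0.192 ± 0.0225 FPKM. Pparg thus went from 44.1% ± 2.27 to 51.7% ± 3.44 of the summed PPAR transcripts.

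Of the 18 PPAR targets listed, 10 were tested, and 4 were called higher and 0 lower, with a median of 0.14 (3 and 1 with median-of-ratios scaling, and 7 and 1 with the block). Over all genes 17.6% were called higher, and 62.5% were called with the block. With extract library 2 left out 2 of 10 PPAR targets were higher, and with any other single library left out 3. Angptl4, an inhibitor of lipoprotein lipase, rose from 1.67 ± 0.0776 to 5.12 ± 0.139 FPKM (log2 change 1.20, adjusted p = 4.17e-05). Fabp4, a fatty acid carrier of fat cells and macrophages, was at 3.19, 3.72 and 4.45 FPKM in control and 8.94, 12.9 and 12.9 with the extract (1.39, adjusted p = 0.00269). Pdk4, which inactivates pyruvate dehydrogenase, rose by 0.35 (adjusted p = 0.01, and 0.0517 with extract library 2 left out). Acadl, a fatty acid dehydrogenase, rose by 0.18 (adjusted p = 0.0357, and 0.192 with median-of-ratios scaling), and its call ended when any 1 library was left out (adjusted p of 0.0578 to 0.138). Fabp4 is also 1 of 5 adipocyte markers, whose summed level was 3.19 to 4.45 FPKM in control and 8.97 to 13.0 FPKM with the extract. Lep and Cfd were listed at 0 in every library, and Adipoq and Plin1 were at most 0.026 FPKM. The sum of the macrophage markers was 16.7 to 17.7 FPKM in control and 12.9 to 14.7 with the extract. Its highest member was Lyz2, at 11.3 to 11.7 against 7.83 to 9.07 FPKM. Csf1r was also lower (0.52 to 0.711 against 0.418 to 0.492 FPKM), and Cd68 overlapped between groups. Cd14 had a higher mean with the extract (1.41 ± 0.126 against 1.72 ± 0.301 FPKM). Ptprc, Adgre1 and Itgam were at most 0.25 FPKM. The part of either cell type in these values was not tested.

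**Figure D3:**
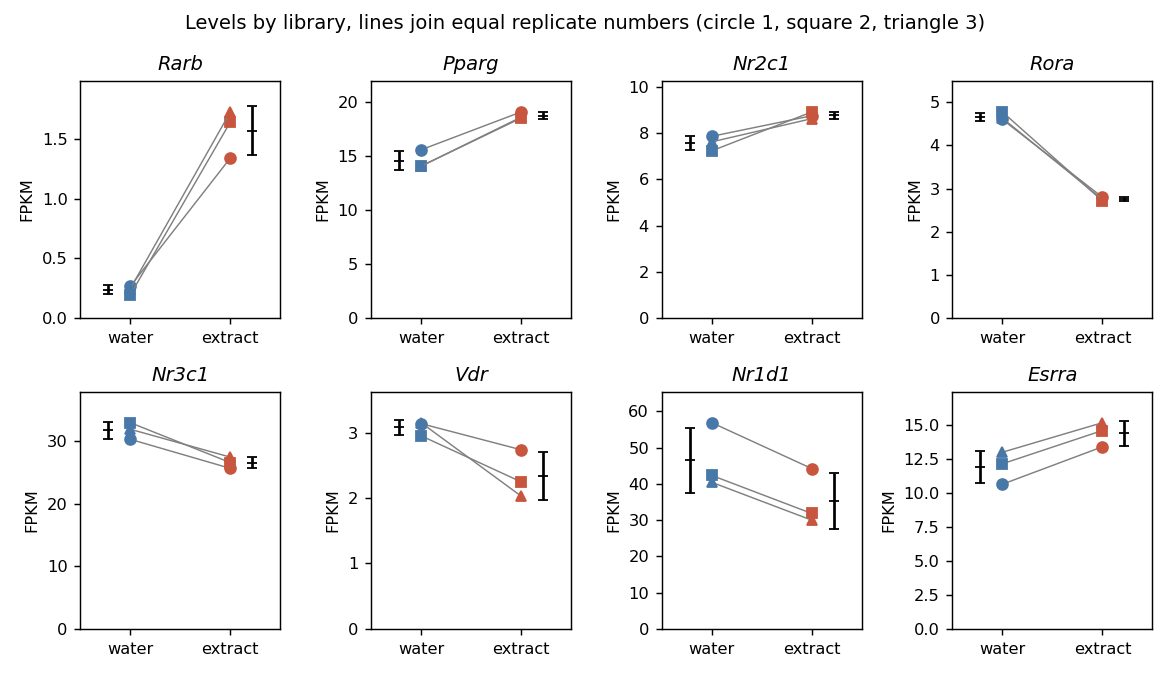
Levels of 8 receptors in FPKM in every library, with lines joining water and extract libraries of the same replicate number and bars at the side for mean ± SD (n = 3). Nr1d1 is lower and Esrra higher along all 3 lines although the groups lie close, and the Rora groups lie far apart.

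Rora, the ROR that activates clock and lipid genes through the same response element as the REV-ERBs repress, fell most of the expressed members. It was at 4.60, 4.77 and 4.63 FPKM in control replicates 1, 2 and 3 and at 2.80, 2.71 and 2.75 FPKM in RCE replicates 1, 2 and 3. The groups were wide apart (ratio 0.59, log2 change -0.59, SE 0.04, adjusted p = 2.88e-04), and the call held under every other setting that tested it. With a minimum mean of 5 FPKM it was not tested. Rorb was at 0.0577 ± 0.00252 against 0.0453 ± 0.00961 FPKM.

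The promoter of Rora (ENSMUSG00000032238, chromosome 9, 68653786 to 69388246, plus strand, mm10) is shown as that of the expressed member with the most negative change. ACGTG, the core letters of the hypoxia-inducible factor element, was searched on both strands, where it also lies inside every CACGTG. It was present in 19.6% of all promoters and in 23.3% of the members' windows, so the single match here, shown in capitals on the opposite strand, is common. The stretch is chr9:68653536-68653785 on the plus strand.
Rora promoter: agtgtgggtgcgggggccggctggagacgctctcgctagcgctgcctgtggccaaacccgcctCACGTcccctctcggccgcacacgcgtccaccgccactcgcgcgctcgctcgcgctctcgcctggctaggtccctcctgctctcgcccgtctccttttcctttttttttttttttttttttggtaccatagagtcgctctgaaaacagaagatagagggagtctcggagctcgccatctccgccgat
TAGGTCA and TGGGTCA, letters bound by REV-ERB and ROR proteins, were in 6.45% of all promoters and in 2 of the 60 windows, those of Rarb and Rxrg.

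The REV-ERBs had changes of opposite sign. Nr1d1 was at 56.9, 42.4 and 40.5 FPKM in control and 44.2, 31.9 and 30.01 with the extract. It was lower in 3 of 3 same-numbered pairs, but replicate 1 was high in both groups and the groups overlapped (log2 change -0.39, SE 0.18, adjusted p = 0.171). With the block it was called lower (adjusted p = 1.14e-05), as it was with extract library 1 left out (-0.56, adjusted p = 0.0412). Nr1d2, REV-ERB beta, was at 11.7, 12.4 and 12.7 FPKM against 13.1, 14.1 and 14.8, higher without overlap (0.18, SE 0.06, adjusted p = 0.0684, and 0.00102 with the block). Nr1d1 made up 78.8% ± 3.62 of REV-ERB transcripts in control and 71.1% ± 5.31 with the extract. Exons of Nr1d1 and Thra overlap on opposite strands by 263 bases, which is 8.55% of the exon bases of Nr1d1 and 5.70% of those of Thra, so reads there could not be told apart without strand. The ratio of Nr1d1 to Rora was 10.0 ± 2.06 in control and 12.8 ± 2.62 with the extract.

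Of 6 measured REV-ERB and ROR targets 1 was called higher and 1 lower (3 and 1 with the block, and 0 and 1 with median-of-ratios scaling or quantile normalization). The higher call ended when any library except extract library 1 was left out. Arntl (BMAL1, the clock activator) fell from 24.4 ± 0.717 to 17.0 ± 1.41 FPKM (-0.50, adjusted p = 0.00419). Of 7 clock genes under E-box control, 3 were higher and 2 lower. Over all genes 17.6% were higher and 6.77% lower, and 62.5% were called with the block. Bhlhe40 (-2.04, adjusted p = 4.97e-05) and Per1 (-0.88, adjusted p = 0.00355), 2 repressors of the clock, fell, and Tef (0.50, adjusted p = 0.00236), a D-box activator, and Per3 (0.32, adjusted p = 0.00627) rose. The third was Dbp, named to complete the count, a D-box activator related to Tef (0.43, adjusted p = 0.0496, and 0.118 with median-of-ratios scaling). The call of Dbp also ended with no filter (0.077), quantile normalization (0.158) and no intensity trend (0.0506), and when any library except control library 1 was left out (adjusted p of 0.0739 to 0.137). Per2, a core clock repressor below the limit that was picked after its values were seen, was at 0.62, 0.561 and 0.493 FPKM in control and 1.32, 1.16 and 0.974 with the extract. It rose, unlike Per1 (0.46 without a filter, adjusted p = 0.00882, and 0.052 with extract library 2 left out).

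Nr3c1, the glucocorticoid receptor, fell modestly. It was at 30.2, 32.9 and 31.8 FPKM in control and 25.6, 26.5 and 27.4 with the extract. The groups did not overlap (ratio 0.837, log2 change -0.25, SE 0.05, adjusted p = 0.0168). The call ended with control library 2 (adjusted p = 0.0699), control library 3 (0.0675) or extract library 2 (0.0749) left out. Of 8 measured glucocorticoid targets 6 were lower and 0 higher, with a median of -0.66, where 6.77% of all genes were lower. The list was chosen with earlier results of these data known, so the 2 shares are no independent comparison. Per1, also counted among the clock genes, and Klf9, also counted as a thyroid hormone target, are among the 6. With control library 2, extract library 2 or extract library 3 left out 4 of 8 were lower, and with quantile normalization 5. The kinase Sgk1 fell by 1.56, the transcription factor Cebpd by 1.35 and the EGF receptor inhibitor Errfi1 by 1.33 on the log2 scale. Fkbp5 and Tsc22d3, 2 widely used glucocorticoid reporters picked after their values were seen, were at 0.21 and 0.00 and not called, Fkbp5 being called higher with the block. The mineralocorticoid receptor Nr3c2 was at 0.116 ± 0.0159 against 0.117 ± 0.0135 FPKM.

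Vdr, the vitamin D receptor, also fell, from 3.14, 2.95 and 3.15 FPKM in control to 2.74, 2.25 and 2.03 with the extract. The groups did not overlap, and RCE replicate 1 was closest to control (ratio 0.759, log2 change -0.29, SE 0.08, adjusted p = 0.0415). The call ended with no filter on low values (adjusted p = 0.0667) and with any library except extract library 1 left out (0.0857 to 0.136). Of its 8 listed targets 2 were measured above 1 FPKM and 0 were called in limma (0 at an unadjusted p under 0.05, 1 higher and 1 lower with the block). Without a filter all 8 were tested and 1 was called lower, where 16.6% of all genes were called. That target was Tnfsf11, picked after its values were seen, at 0.431 ± 0.0693 against 0.092 ± 0.0451 FPKM (-0.39, limma adjusted p = 0.00454).

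Thra, thyroid hormone receptor alpha, was at 13.0, 10.8 and 11.0 FPKM in control and 11.0, 9.76 and 9.97 with the extract, lower in 3 of 3 pairs with overlap (-0.16, SE 0.08, adjusted p = 0.195, and 0.00247 with the block). Thrb was at 0.899 ± 0.0405 against 0.825 ± 0.0376 FPKM. Of 2 measured thyroid hormone targets, Klf9, also induced by glucocorticoids, fell (-0.24, adjusted p = 0.0267), where 6.77% of all genes were lower. With the block 1 was higher and 1 lower. The call of Klf9 ended when any library except extract library 1 was left out (adjusted p of 0.059 to 0.107). Without a filter 7 listed targets were tested and 2 were lower, where 909 of 17334 genes were lower. Beside Klf9 this was Hr, picked after its values were seen, at 0.526 ± 0.0273 against 0.233 ± 0.0194 FPKM (-0.31, limma adjusted p = 8.83e-04).

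The testicular receptors Nr2c1 (TR2) and Nr2c2 (TR4), orphan receptors that bind direct repeats, rose slightly. Nr2c1 was at 7.87, 7.24 and 7.63 FPKM in control and 8.76, 8.92 and 8.63 in extract libraries (log2 change 0.19, SE 0.04, adjusted p = 0.0264). Nr2c2 was at 6.33, 6.70 and 6.73 against 7.39, 7.88 and 7.87 FPKM (0.20, SE 0.05, adjusted p = 0.0247). Neither gene overlapped between groups. With median-of-ratios scaling both were at or below 0.12 and not called (adjusted p = 0.177 and 0.0827). With quantile normalization the adjusted p was 0.201 and 0.108. Both calls also ended with control library 2 (adjusted p = 0.0924 for Nr2c1 and 0.072 for Nr2c2), control library 3 (0.0845 and 0.0689), extract library 2 (0.112 and 0.108) or extract library 3 (0.0766 and 0.0934) left out, and that of Nr2c2 with control library 1 left out (0.0572). Mrps25 shares 30.7% of the exon bases of Nr2c2 on the opposite strand, at 3.36 and 3.80 FPKM in the groups, and its part was not tested.

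Esrra, the orphan estrogen-related receptor alpha that drives mitochondrial genes, was at 10.6, 12.1 and 13.0 FPKM in control and 13.4, 14.6 and 15.2 with the extract. The groups were apart and each pair was higher (ratio 1.21, log2 change 0.25, SE 0.08, adjusted p = 0.0678, and 2.62e-04 with the block). With extract library 1 left out Esrra was called higher (adjusted p = 0.0483). Of 9 measured ERR targets 1 was higher and 0 lower, the muscle-type carnitine palmitoyltransferase Cpt1b (0.41, adjusted p = 0.005). With the block 7 were higher and 1 lower, where 62.5% of all genes were called. The list median was 0.08, next to 0.08 over all genes. Esrrg was at 0.143 ± 0.021 against 0.148 ± 0.0211 FPKM, and Esrrb was at most 0.101 FPKM.

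The LXRs, which sense oxysterols, did not pass the threshold. Nr1h2 was at 32.1, 24.6 and 23.9 FPKM in control and 30.2, 24.2 and 24.2 with the extract, with replicate 1 high in both groups (-0.03, 95% interval -0.36 to 0.30). Nr1h3 (LXR alpha) was at 1.27 ± 0.157 against 1.28 ± 0.0484 FPKM (0.01, 95% interval -0.13 to 0.15). Of 8 measured LXR targets, beside 17.6% higher over all genes, 3 were higher and 0 lower, with a median of 0.01. These were the lipoprotein lipase Lpl (0.57, adjusted p = 5.27e-04), Mylip, a ligase that degrades the LDL receptor (0.48, adjusted p = 0.00301), and the cholesterol exporter Abca1 (0.60, adjusted p = 0.00511). With median-of-ratios scaling 3 were higher and 1 lower, and with the block 4 and 4, where 62.5% of all genes were called. The 4 lower with the block were Apoe (-0.29), Srebf1 (-0.17), Scd1 (-0.13) and Pltp (-0.10), not called without it.

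Among COUP transcription factors, orphan regulators of mesenchymal and neural development, no change was called. Nr2f2 was at 15.6 ± 1.89 against 16.9 ± 2.21 FPKM (0.11, adjusted p = 0.535, and 0.0207 with the block). Nr2f6 (EAR2) was at 13.5 ± 0.828 against 13.4 ± 1.70 FPKM (-0.01, 95% interval -0.23 to 0.21). Nr2f1 was at 1.96, 1.88 and 2.14 FPKM against 1.79, 1.73 and 1.87, lower in 3 of 3 pairs and just apart (-0.10, adjusted p = 0.191, and 0.0376 with quantile normalization). Nr6a1 (GCNF), an embryonic repressor, was at 1.35 ± 0.018 against 1.35 ± 0.0824 FPKM (0.00, 95% interval -0.10 to 0.10).

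The estrogen and progesterone receptors lay far below 1 FPKM. Esr1 (estrogen receptor alpha) was at 0.152, 0.167 and 0.175 FPKM in control and 0.161, 0.197 and 0.159 with the extract, with overlap (0.01 without a filter, adjusted p = 0.766). Esr2 (estrogen receptor beta) was at 0.071, 0.078 and 0.042 FPKM against 0.169, 0.126 and 0.111, apart, with a ratio of 2.13. On its longest transcript this stands for 6.96 to 13.0 fragments in a control library and 20.9 to 25.9 in an extract library. Without a filter it was called higher (0.09, SE 0.02, limma adjusted p = 0.0424), and the call ended with median-of-ratios scaling (0.0693) and when any 1 library was left out (adjusted p of 0.0624 to 0.130). Pgr was at 0.156 ± 0.0146 against 0.163 ± 0.0204 FPKM. Of 5 measured estrogen receptor targets 0 were called in limma (0 at an unadjusted p under 0.05, 2 higher and 1 lower with the block, and 1 lower with median-of-ratios scaling), with a median of 0.07. The only measured target of PXR, CAR and FXR, the bilirubin-conjugating enzyme Ugt1a1, was at 0.24 (adjusted p = 0.105, and called higher with the block).

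Further members, among them receptors of liver, gut and gonad, were at or near 0. Nr1h4 (FXR, bile acids), Nr1i2 (PXR) and Nr1i3 (CAR, both xenobiotics), Hnf4a, Nr5a1 (SF1), Nr5a2 (LRH1), Nr0b1 (DAX1), Rxrg and Esrrb had a mean of at most 0.05 FPKM but were above 0 in at least 1 library. Hnf4g, Nr0b2 (SHP), Nr2e1 (TLX) and Nr2e3 (PNR) were listed at 0 in all 6 libraries. For these 4, a count of 0 allows up to 3 fragments, which on the longest transcript is 0.0282, 0.0581, 0.020 and 0.0245 FPKM in the shallowest library, for counting error only. In contrast the Nr4a receptors fell, Nr4a1 by 2.79, Nr4a3 by 1.48 and Nr4a2 by 0.61 on the log2 scale, the call of Nr4a2 ending with any library except extract library 1 left out (adjusted p of 0.066 to 0.133).

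**Figure D4:**
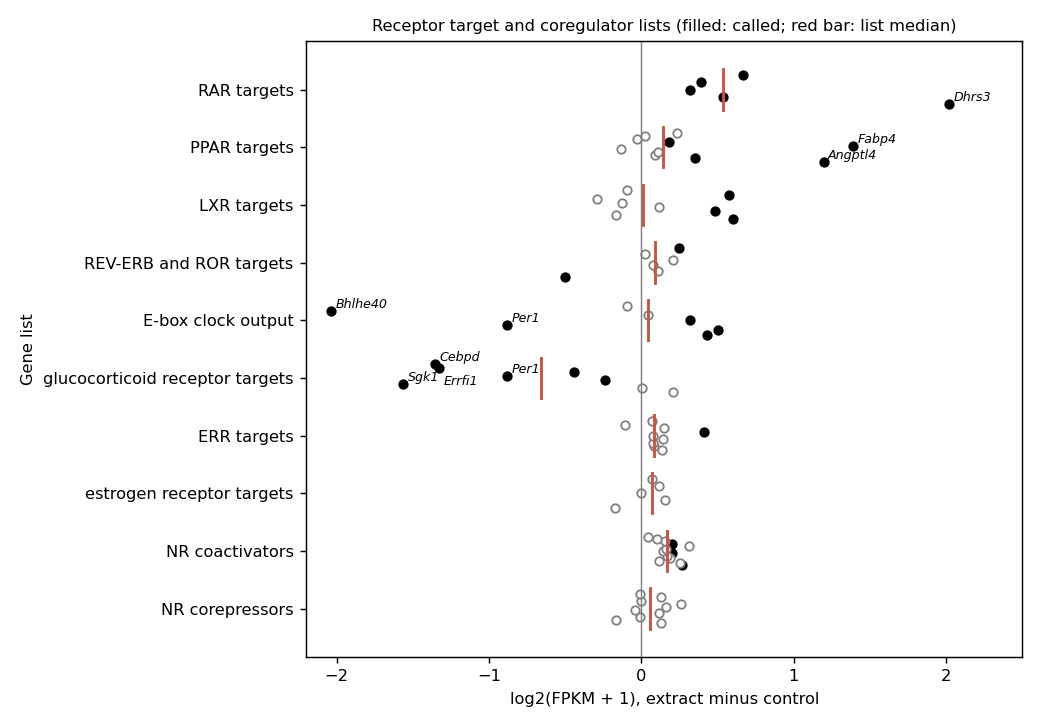
Changes of measured genes on lists of receptor targets and coregulators, on the log2(FPKM + 1) scale as extract minus control (filled, called; red bar, list median). All 5 tested RAR targets lie right of 0, with Dhrs3 at 2.02, and the corepressors hold no filled point.

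Coregulators bridge receptors to chromatin and to the transcription machinery. Of 13 measured coactivators 3 were higher and 0 lower, a share near the 17.6% higher over all genes, with a median of 0.17. With the block 12 were higher, where 62.5% of all genes were called, and 0 were higher with median-of-ratios scaling or quantile normalization. These were Ncoa1 (SRC1, 0.27, adjusted p = 0.0251), Kat2b (PCAF, an acetyltransferase, 0.20, adjusted p = 0.0225) and Med1, the Mediator subunit that binds receptors (0.20, adjusted p = 0.0401). All 3 calls ended with control library 3 left out (adjusted p = 0.0906, 0.0789 and 0.122) or extract library 2 left out (0.0886, 0.0978 and 0.114). That of Ncoa1 also ended with control library 2 left out (0.0916), that of Kat2b with control library 1 (0.0534) or extract library 3 (0.0786), and that of Med1 with control library 2 (0.12), extract library 1 (0.072) or extract library 3 (0.118). Of 10 corepressors, among them Ncor1 and Hdac3, 0 were called in limma (2 at an unadjusted p under 0.05, 5 higher and 1 lower with the block). Of 10 chaperones of steroid receptors 3 were higher (5 higher and 2 lower with the block), the immunophilins Fkbp4 (0.41, adjusted p = 0.00193) and Ppid (0.24, adjusted p = 0.0398) and the HSP90 activator Ahsa1 (0.17, adjusted p = 0.037). The call of Ahsa1 ended when any 1 library was left out (adjusted p of 0.0579 to 0.132), and that of Ppid when any 1 except extract library 1 was (0.0664 to 0.143). With median-of-ratios scaling only Fkbp4 was called among the 10. Of 7 measured enzymes that make or clear receptor ligands 2 were higher and 1 lower (4 and 1 with the block). Without a filter 19 were tested, and 4 were higher and 3 lower, Aldh1a3 among the latter. In that fit 1964 of 17334 genes were higher and 909 lower. Dhrs3 and Cyp27a1 (an oxysterol-forming hydroxylase, 0.46, adjusted p = 0.00291) rose. Ch25h, which makes the LXR ligand 25-hydroxycholesterol, fell from 32.0 ± 0.546 to 16.3 ± 0.632 FPKM (-0.93, adjusted p = 1.11e-04).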

How the data were processed

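Messenger RNA of 6 samples was sequenced from stranded libraries made from TRIzol RNA, per the labels' protocols. The deposited values are FPKM, 1 per gene and library, by the values and by the tools named, since the file header names no unit. The submitters' processing notes list Cuffdiff 2.2.1, Cufflinks, STAR 2.5.4 and the build mm10, with no roles. The annotation, any filters and the use of strand are not stated there. A count model was not applied to FPKM, and since FPKM are relative, a few very abundant transcripts can shift every other gene of a library.

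Members were chosen by symbol, and the members and lists were chosen with earlier results of these data known. All 21853 identifiers matched GENCODE M21 (same build), which gave positions, lengths and exon overlaps. For 24 symbols on more than 1 row, the row with the highest mean stood for the gene. Depth was the value at which FPKM of 0.02 to 0.5 in genes with 1 transcript came out as whole fragments, within 0.1 (100% of 258 to 286 values per library, against 14.0 to 15.2% at other depths). Intervals and floors cover counting error only.

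Tests of extract against control used limma 3.58.1 in R 4.3.3, with a trend on intensity, on log2(FPKM + 1) of genes averaging 1 FPKM or more. They were 2-sided and Benjamini-Hochberg adjusted, with a threshold of 0.05. The fit was first run on simulated data with independent noise per gene and library. Those data lacked the shift that the replicate 1 libraries share, so they give no error rate for the real libraries. Expressed members are named, and up to 4 called genes with the smallest p per list, with exceptions marked; some listed genes are counted but not reported here. Deviations from group means correlated at 0.919, 0.62 and 0.681 for same-numbered pairs, each over 0.1, so a block on number was fitted. Crossed pairs of numbers 2 and 3 correlated more (0.771 and 0.724). The blocked value is given where it changes a call. Alternatives were pseudocounts, filters, scalings, no trend, block, array weights and left-out libraries. Those combining no filter with another setting were chosen after seeing the data.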

Additional observations from a re-analysis of the deposited data

How the results depend on the processing

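With the replicate block 5060 genes were higher and 1730 lower (8 and 7 members), with array weights 5047 and 1731 (7 and 6), and without both replicate 1 libraries 4364 and 1480 (7 and 6). A minimum mean of 5 FPKM gave 867 and 485 genes, and 1 member lower, as it removed Rora and Vdr. Median-of-ratios scaling gave 913 higher genes, quantile normalization 785, and 1 higher member each. No filter gave 1964 higher and 909 lower of 17334 genes, with 5 members higher and 2 lower. With 1 library left out, 685 to 2040 genes were higher and 394 to 734 lower, with 1 to 5 members higher and 1 to 4 lower. The cause of these shifts was not tested, beyond fewer samples or genes.

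Over the alternatives for the 21 expressed members, 259 values kept direction and side of the threshold, 22 lost a call, 27 gained one and 23 changed sign. Sign changes were in members near 0 and none was called. Rxra was at -0.060 (median-of-ratios), -0.0435 (quantile) and -0.000474 (array weights), Nr1h3 at -0.038 and -0.10 with the former pair and -0.017 without both replicate 1 libraries, Nr2f6 at 0.013 there, and Esr1 without a filter at -0.0032 with median-of-ratios scaling. With 1 library left out, the changes ran from -0.13 to 0.098 for Nr1h2, -0.20 to 0.045 for Ppard, -0.105 to 0.0496 for Nr2f6, -0.0025 to 0.0348 for Rxra, -0.0291 to 0.016 for Nr6a1, -0.025 to 0.0664 for Nr1h3 and -0.0057 to 0.0175 for Esr1. Among the 21 members the replicate block changed no call other than those given. Members below 0.05 FPKM rest on few fragments and vary between replicates: Esrrb stood for 19.8 fragments in both replicate 1 libraries and 2.33 to 6.03 in the others.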

Other observations

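The direct repeat of half-sites with 5 bases between was found in promoters of 31 genes, of which 14 were in the table and 1 passed the limit of 1 FPKM. That gene was Blvrb, biliverdin reductase B, at 13.0 against 17.7 FPKM (log2 change 0.41, limma adjusted p = 0.00342). Of the others, picked after their values were seen, Rarb and Syndig1 (0.66 against 0.846 FPKM, adjusted p = 0.048 without a filter) were higher and the platelet chemokine Ppbp (0.319 against 0.155 FPKM, adjusted p = 0.0195) was lower. Cyp26a1, a textbook retinoic acid target with the same repeat, was at most 0.038 FPKM.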
